A study of Mus musculus with 10 samples.

Results

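Intraepithelial lymphocytes are T cells that live between the epithelial cells of the gut lining, and most of those in the small intestine carry CD8 and either an alpha-beta or a gamma-delta T cell receptor. They hold granules of granzymes and perforin with which they kill infected or stressed cells, they release the chemokine CCL5, and they are kept in the epithelium by the integrin CD103, which binds E-cadherin. Because they lie within the epithelial sheet, they are collected with the epithelium when it is stripped from the tissue, and their transcripts are part of a bulk library of isolated epithelial cells. The genes described here are 37 of the 35275 genes listed in the expression table, taken by symbol from the T cell receptor complex, its coreceptors and signalling proteins, the cytotoxic granule, and the chemokines and receptors of gut homing. All 37 were listed, and 35 had a mean of at least 0.1 FPKM (reads relative to gene length and to the total of the library) over the 10 libraries and were tested. Cd28, a costimulatory receptor with at most 7 reads in any library, and Klrk1 lay below this mean.

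RNA was taken from jejunal epithelial cells of 10 adult male C57BL/6 mice, all of the genotype VillinCreERT2;MYO5Bflox/flox, in which tamoxifen activates a Cre recombinase that deletes Myo5b. The 3 control mice (mice 2, 4 and 5) received corn oil in place of tamoxifen. The 4 MYO5B-knockout mice (mice 3, 5, 6 and 7) received 2 mg of tamoxifen and a vehicle, and the 3 LPA-treated MYO5B-knockout mice (mice 1, 4 and 5) received 2 mg of tamoxifen and lysophosphatidic acid (LPA), a signalling lipid, at 3 mg/kg. Vehicle and LPA were injected for 4 days. The villin promoter drives the recombinase in epithelial cells, so that the lymphocytes themselves keep Myo5b, and tamoxifen exposure and loss of Myo5b cannot be told apart in a comparison with control mice. The description of LPA-treated mouse 1 names vehicle on its first line and LPA on its second, and it was placed with the LPA-treated mice by its title. In bulk RNA, fewer lymphocytes and less RNA per lymphocyte cannot be told apart.

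The libraries held between 10949420 and 24470409 reads on genes. Those of control mouse 2 and MYO5B-knockout mouse 3 stood apart, with 12242 and 12601 genes detected against 17309 to 18267 in the other 8, and with 17.4% and 18.1% of reads on mitochondrial genes against 1.98% to 3.5%. Results are therefore also given without these 2 libraries. Genes that define epithelium were abundant in every library: the summed FPKM of 12 such genes, Epcam, Vil1 and keratins among them, lay between 7106.9 and 13980.4. T cell genes were a small part of each library, since the 37 genes together took between 0.00367% and 0.0766% of reads. Of the genes that define T cells, Cd3e, Cd3g, Cd8a, Trbc1 and Trbc2 were above 0 in all 10 libraries. Cd3d and Cd8b1 were each at 0 in MYO5B-knockout mouse 3 alone. Trac, the constant segment of the alpha chain, was at 0 in control mouse 2 and MYO5B-knockout mouse 3. Cd247 was at 0 in these libraries and in LPA-treated mouse 4. Myo5b itself spanned 16.5 to 32 FPKM in the control group, 10.5 to 13.6 FPKM in the MYO5B-knockout group and 10.3 to 11.7 FPKM in the LPA-treated group.

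The cytotoxic granule genes were the most abundant of the role groups, and the promoter stretches of its members are printed here, as the 150 bases before the start that RefSeq gives on the GRCm38.p6 build. Each reads 5′ to 3′ on the gene's own strand. Capitals mark the letters of 4 motifs on either strand: TGTGGT (bound by RUNX factors), GGAAGT (ETS factors), GGTGTG (T-box factors) and CAGCTG (E-box proteins). The RUNX and T-box letters can overlap each other, and CAGCTG reads the same on both strands. The stretches lie at chr13:113100982-113101131 on the minus strand for Gzma, chr14:56262335-56262484 on the minus strand for Gzmb, chr7:43436988-43437137 on the plus strand for Nkg7 and chr10:61297686-61297835 on the plus strand for Prf1.
Gzma: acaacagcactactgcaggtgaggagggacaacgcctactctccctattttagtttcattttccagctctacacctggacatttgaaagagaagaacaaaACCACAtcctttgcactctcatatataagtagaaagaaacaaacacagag
Gzmb: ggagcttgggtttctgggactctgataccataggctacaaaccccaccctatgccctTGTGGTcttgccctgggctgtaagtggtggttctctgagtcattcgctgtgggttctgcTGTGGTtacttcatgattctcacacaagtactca
Nkg7: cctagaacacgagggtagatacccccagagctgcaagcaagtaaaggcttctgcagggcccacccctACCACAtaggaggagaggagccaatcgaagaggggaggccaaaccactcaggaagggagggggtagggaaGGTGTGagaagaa
Prf1: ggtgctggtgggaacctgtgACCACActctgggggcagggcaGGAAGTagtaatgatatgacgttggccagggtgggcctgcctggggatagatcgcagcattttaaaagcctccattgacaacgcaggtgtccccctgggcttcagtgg
All 4 stretches hold TGTGGT or its reverse complement ACCACA, Gzmb at 2 places, and Nkg7 and Prf1 also hold the T-box or the ETS letters. Windows of 300 bases around the start were given for 25 of the 37 genes, 32 windows in all because some genes have several starts. Of these windows, 43.8% (14 windows of 13 genes) held TGTGGT or its reverse complement, against 16.8% of all 32851 windows. Counted on either strand in the same way, GGAAGT was in 46.9% against 23.8%, GGTGTG in 28.1% against 19.0% and CAGCTG in 21.9% against 16.3%. These are counts of letters in a window and do not show that a factor binds there.

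Some of the genes are neighbours on the genome. Cd3g and Cd3d lie 1.36 kb apart on chromosome 9 and are read in opposite directions, with Cd3e 11.7 kb beyond Cd3d. Cd8b1 and Cd8a lie 36.0 kb apart on chromosome 6, Klrd1 and Klrk1 11.5 kb apart on chromosome 6, and Ccr9 and Cxcr6 23.0 kb apart on chromosome 9. Several overlap a gene on the other strand, and the sources used here do not state whether strand was used in counting. The overlapping gene held more reads than the T cell gene for Ccr9 (Slc6a20a, 2639.3% of the reads of Ccr9), Cd247 (a gene listed as POU2F1, 1687.2%), Cd160 (Pdzk1, 1539.1%) and Cxcr6 (Fyco1, 709.6%), so the values of these 4 are uncertain. For Itgae (Gsg2, 81.6%) and Cd7 (Gm11775, 29.1%) it held fewer.

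**Figure D1:**
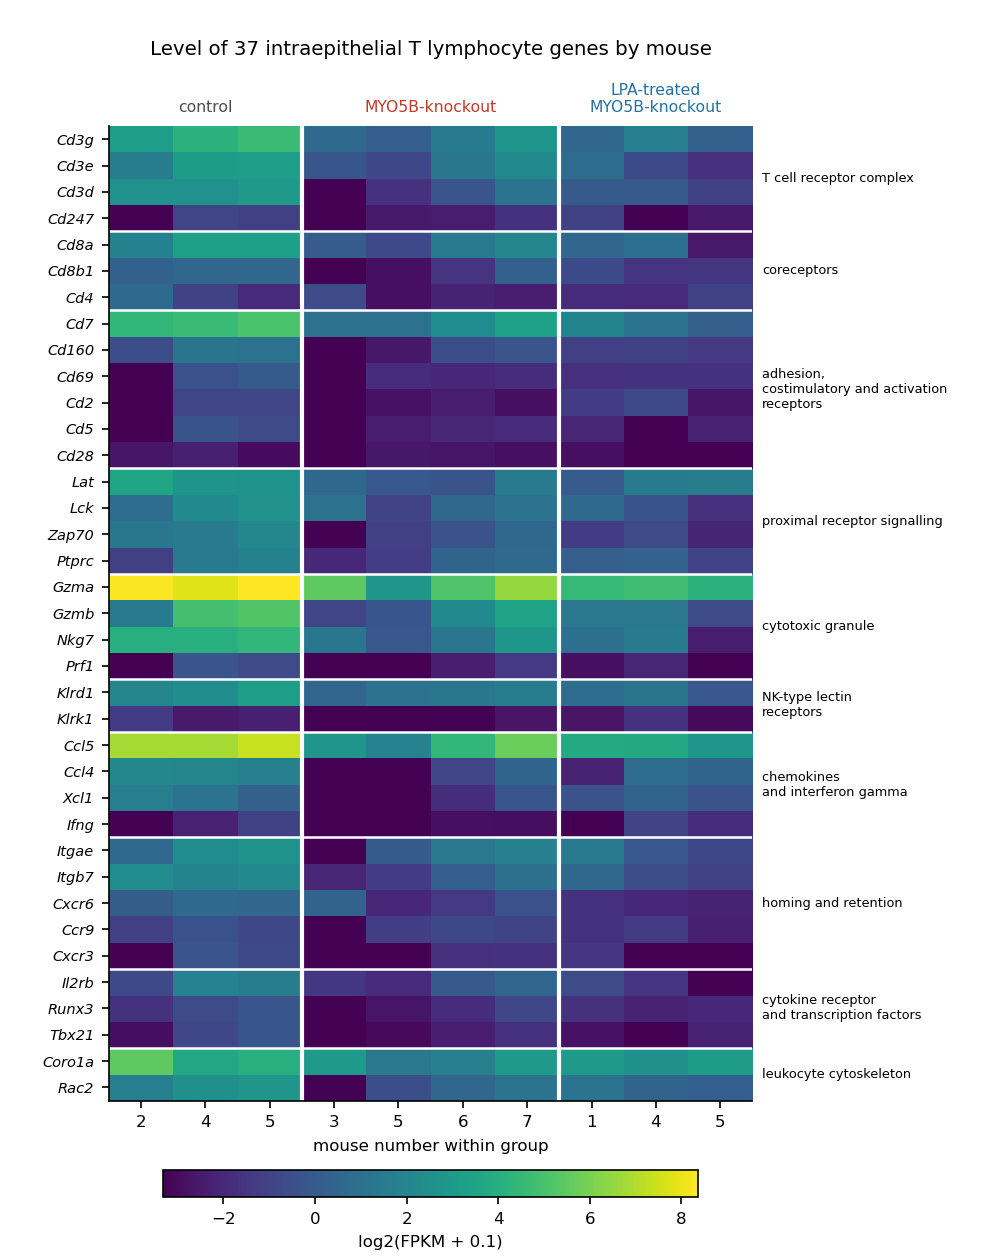
Level of each of the 37 genes (rows, grouped by role) in each of the 10 mice (columns, by group and mouse number), as log2(FPKM + 0.1). The rows are brightest in control mice, Gzma and Ccl5 above all others, and the darkest column is that of MYO5B-knockout mouse 3, where 20 of the 37 genes had 0 reads.

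The first comparison asks what loss of Myo5b from the epithelium, with tamoxifen, did to the level of lymphocyte transcripts. The genes were lower in MYO5B-knockout mice throughout: the fitted log2 difference was below 0 for 35 of the 35 genes tested, where 36.6% of all 15729 genes tested were lower. Summed over the 37 genes, the level was 578, 519 and 727 FPKM in controls 2, 4 and 5. The values were 73.9, 26.1, 95.5 and 223 FPKM in MYO5B-knockout mice 3, 5, 6 and 7, so that every knockout mouse lay below every control mouse and the means (608 ± 107 FPKM, SD, n = 3, and 105 ± 84.1 FPKM, SD, n = 4) differed 5.81-fold. Mouse 7 was the highest of the 4 knockout mice for 29 of the 35 genes.

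By role, the median log2 difference was lowest for the chemokines (-3.24), the granule genes (-2.80) and the cytoskeleton genes (-2.48). It was nearest to 0 for the adhesion and activation receptors (-1.15) and the homing genes (-1.28). This order changed without the 2 libraries with few detected genes. The lowest medians were then those of the granule genes (-3.08), the chemokines (-2.79) and the T cell receptor complex (-2.59). Nearest to 0 were the NK-type lectin receptors (-1.49, 1 gene tested), the homing genes (-1.73) and the adhesion and activation receptors (-1.81). A difference on this scale understates the change of low genes, so the order of the medians need not be that of the falls. Cd2, Cd5 and Cd69 differed by -1.15, -1.02 and -0.999 in limma and by -2.74, -2.17 and -2.11 in edgeR. By mean summed FPKM, the adhesion and activation receptors fell 5.41-fold, the T cell receptor complex 5.22-fold and the cytoskeleton genes 4.59-fold. The granule genes fell 6.46-fold, the chemokines 6.29-fold and the homing genes 3.16-fold.

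By single genes, few passed the threshold. With limma's adjusted p below 0.05 over all genes tested, 2 of 35 genes fell, Gzma and Cd7, where 0.884% of all genes did, and 0 rose, where 1.13% did. At an unadjusted p below 0.05, 19 were lower, against 6.35% of all genes, and 0 were higher, against 11.2%. The groups did not overlap, with every knockout mouse lower, for 15 of the 35 genes, against 6.2% of all genes. The median log2 difference was -2.02 over the 35 genes and 0.29 over all genes tested. It was -2.36 and 0.039 after the libraries were scaled by the median of their ratios. On the reads recovered from the FPKM, edgeR's adjusted p was below 0.05 for 2 of the genes, with 1.68% of all genes lower, and DESeq2's for 14 of 34, with 7.02% of all genes lower and 5.5% higher, and each of these 14 was lower.

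**Figure D2:**
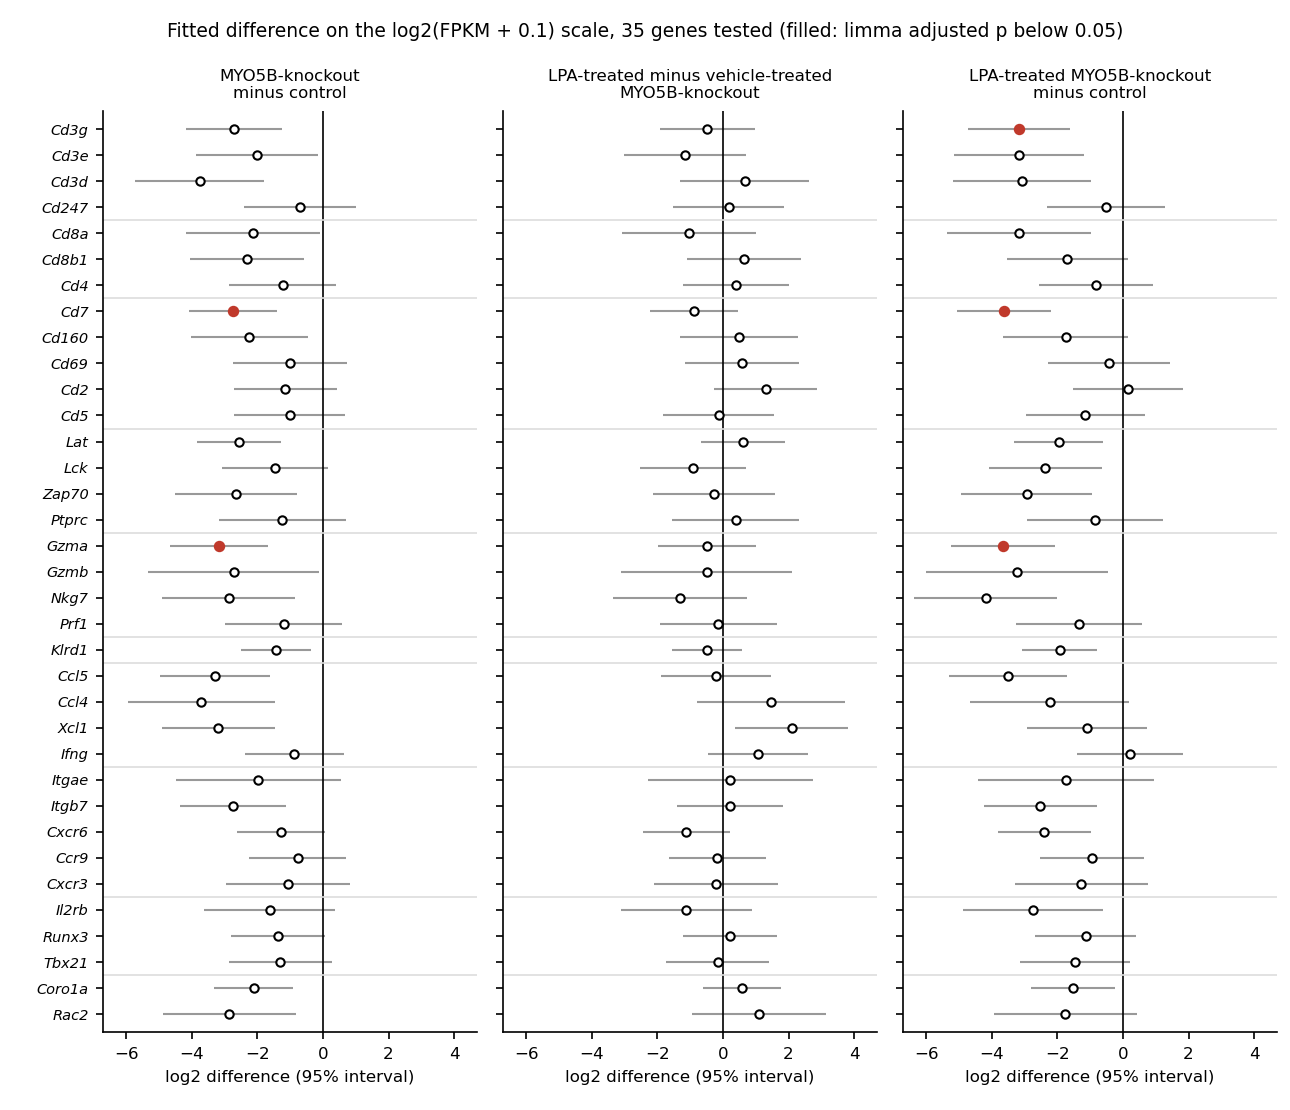
Fitted difference of each of the 35 genes tested, on the log2(FPKM + 0.1) scale with its 95% interval, for the 3 comparisons. Filled points have an adjusted p below 0.05 (limma). All 35 points lie left of 0 between MYO5B-knockout and control mice, whereas between LPA-treated and vehicle-treated MYO5B-knockout mice 18 lie left and 17 right of 0.

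The cytotoxic granule genes held the largest share of the lymphocyte signal and showed among the largest differences. Gzma (ENSMUSG00000023132, chromosome 13 from 113093825 to 113100979), which encodes granzyme A, a serine protease released into target cells, measured 319.7, 226 and 331 FPKM in controls 2, 4 and 5. Its values in knockouts 3, 5, 6 and 7 were 44.0, 7.2, 34.9 and 91.4 FPKM. The groups did not overlap, and Gzma fell by 3.18 on the log2 scale (standard error 0.67, limma's adjusted p = 0.0438), or 6.59-fold by the means. With both libraries of low detection left out, limma gave it an adjusted p of 0.0796, and of the 10 fits that each left out 1 mouse, 2 had it below 0.05, those without knockout mouse 5 or 7. Gzmb, which encodes granzyme B, measured 2.75, 30.2 and 36.6 FPKM in the controls, against 0.451, 0.777, 4.56 and 10.8 FPKM in the knockouts. Control mouse 2 was far below the other two and inside the range of the knockout mice, and the difference of -2.72 had an adjusted p of 0.263 (limma). Nkg7, a membrane protein of the granules, lay between 16.5 and 21.3 FPKM in the control mice and between 0.793 and 7.17 FPKM in the knockout mice without overlap (-2.88, limma's adjusted p = 0.137). Prf1, which encodes the pore-forming perforin, stayed below 1 FPKM in every library and had 0 reads in control mouse 2.

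Among the adhesion and activation receptors, Cd7 carried most of the reads. Cd7 (ENSMUSG00000025163, chromosome 11 from 121036747 to 121039418), an immunoglobulin-family receptor of T and NK cells, measured 21.6, 24.9 and 33.7 FPKM in the controls. The knockouts showed 2.05, 2.01, 5.08 and 10.1 FPKM, all below the lowest control, and Cd7 fell by 2.75 on the log2 scale (standard error 0.61, limma's adjusted p = 0.0491). With both libraries of low detection left out, the adjusted p was 0.0778 (limma), and with 1 mouse left out it was below 0.05 in 1 of 10 fits, that without knockout mouse 7. Cd160, a receptor for HVEM on cytotoxic lymphocytes, measured 0.594, 2.18 and 1.98 FPKM in the controls, against 0, 0.0672, 0.605 and 0.736 FPKM in the knockouts (-2.24, limma's adjusted p = 0.184). Cd2, Cd5 and Cd69 had 0 reads in control mouse 2 and in MYO5B-knockout mouse 3. Of these, Cd69, an early activation and tissue residence receptor, was at 0.681 and 0.881 FPKM in controls 4 and 5 and between 0.151 and 0.191 FPKM in knockout mice 5, 6 and 7, and it alone of the 35 genes had an adjusted p below 0.05 (0.0298, limma) without the 2 libraries, where 2.38% of all genes were called lower.

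The T cell receptor complex itself followed the same order. Cd3g, which encodes the gamma chain of CD3, measured 9.03, 17.9 and 25.2 FPKM in the controls, against 1.52, 1.02, 2.77 and 6.98 FPKM in the knockouts. The groups did not overlap, and the difference was -2.71 (standard error 0.66, limma's adjusted p = 0.0641). Cd3e measured 2.9, 8.78 and 9.19 FPKM in the controls, against 0.763, 0.485, 2.28 and 4.66 FPKM in the knockouts, where mouse 7 lay above control mouse 2 (-2.02, limma's adjusted p = 0.248). Cd3d differed by -3.76 (standard error 0.89, limma's adjusted p = 0.0601), and by -3.05 with both libraries of low detection left out, with 5.94 to 7.9 FPKM in the control mice and 0 to 2.11 FPKM in the knockout mice. Cd247, the zeta chain, differed by -0.70, from at most 28 reads in any library.

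The coreceptors were present mainly as CD8. Cd8a, whose alpha chain can pair with itself on intraepithelial lymphocytes, measured 3.44, 9.96 and 9.67 FPKM in the controls, against 0.934, 0.5, 2.56 and 3.88 FPKM in the knockouts, with mouse 7 above control mouse 2 (-2.14, limma's adjusted p = 0.266). Cd8b1, the beta chain, was lower per length than Cd8a in 9 of the 10 libraries, with 1.15, 1.37 and 1.33 FPKM in the control mice. The knockouts showed 0, 0.0409, 0.242 and 1.09 FPKM, without overlap (-2.33, limma's adjusted p = 0.157). Cd4, which marks helper T cells and also some other leukocytes, was highest in the 2 libraries with few detected genes, at 1.51 FPKM in control mouse 2 and 0.558 FPKM in MYO5B-knockout mouse 3.

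The signalling proteins next to the receptor were also lower. Lat, the membrane scaffold that links the receptor to its downstream enzymes, measured 11.6, 6.61 and 6.36 FPKM in the controls, against 1.47, 0.796, 0.711 and 2.79 FPKM in the knockouts. These did not overlap, and the difference of -2.56 had an adjusted p of 0.0511 (limma). Lck, the kinase that starts receptor signalling, measured 1.74, 4.79 and 5.93 FPKM in the controls, against 2.01, 0.425, 1.41 and 2.07 FPKM in the knockouts, with overlap (-1.46, limma's adjusted p = 0.332). Zap70, the kinase recruited after Lck, did not overlap between the groups, at 2.34 to 4.15 FPKM against 0 to 1.4 FPKM (-2.66, limma's adjusted p = 0.134). Ptprc, the phosphatase CD45 of all leukocytes, did overlap, at 0.367 to 3.39 FPKM against 0.158 to 1.57 FPKM.

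**Figure D3:**
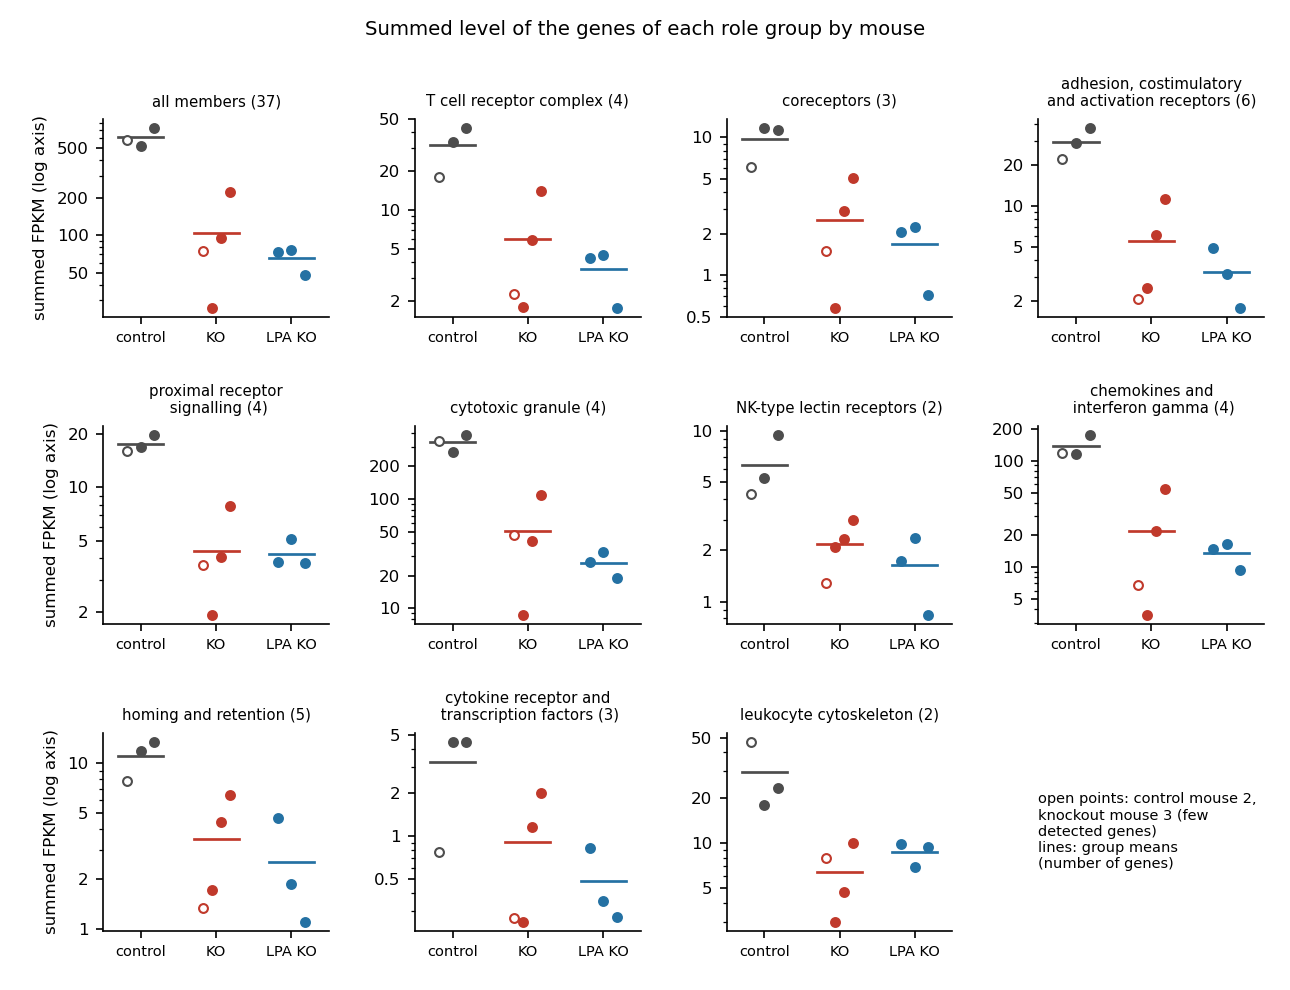
Summed FPKM of each role group (log axis) by mouse, with the group mean as a line. KO stands for MYO5B-knockout and LPA KO for LPA-treated MYO5B-knockout mice, and open points are control mouse 2 and MYO5B-knockout mouse 3. For all 37 genes the control mice lie at 519 to 727 FPKM, above every knockout mouse (26.1 to 223) and every LPA-treated mouse (48.0 to 76.2).

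The chemokine genes were close to Gzma in the size of their differences. Ccl5, whose product attracts further T cells, measured 109.5, 109.8 and 169.8 FPKM in the controls, against 6.84, 3.56, 21.3 and 51.8 FPKM in the knockouts. The groups did not overlap, the means differed 6.21-fold, and the log2 difference of -3.29 (standard error 0.76) had an adjusted p of 0.0556 (limma). Ccl4, a chemokine released by activated T cells, measured 4.12, 3.84 and 3.29 FPKM in the controls, against 0, 0, 0.445 and 1.28 FPKM in the knockouts (-3.70, limma's adjusted p = 0.0909). Xcl1, which attracts cross-presenting dendritic cells, lay between 1.09 and 3.12 FPKM against 0 to 0.763 FPKM, also without overlap (-3.19, limma's adjusted p = 0.0645). Ifng, the gene of interferon gamma, had at most 9 reads in any library.

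Genes of homing and retention differed less evenly. Itgae, the alpha chain of CD103, measured 1.48, 5.12 and 6.39 FPKM in the controls, against 0, 0.89, 2.44 and 3.26 FPKM in the knockouts (-1.98, limma's adjusted p = 0.401). Its partner Itgb7 measured 4.94, 3.79 and 4.78 FPKM in the controls, against 0.137, 0.325, 1.01 and 1.87 FPKM in the knockouts, without overlap (-2.74, limma's adjusted p = 0.0824). The chemokine receptor genes Ccr9, Cxcr3 and Cxcr6 all overlapped between the groups, with log2 differences of -0.77, -1.06 and -1.28, and none exceeded 1.51 FPKM in any library.

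Klrd1 and Klrk1, which encode the lectin receptors CD94 and NKG2D, were measured at different depths. Klrd1 measured 3.94, 5.23 and 9.38 FPKM in the controls, against 1.29, 2.08, 2.34 and 2.94 FPKM in the knockouts, without overlap (-1.43, limma's adjusted p = 0.156). Klrk1 had 11, 4 and 6 reads in the controls, 0, 0, 0 and 4 reads in the knockout mice, and 4, 12 and 1 reads in the LPA-treated mice. It was not tested because its mean lay below 0.1 FPKM. From these few reads, its FPKM did not overlap between control (0.0813 to 0.312) and knockout mice (0 to 0.0555). Il2rb, the receptor chain through which IL-15 sustains intraepithelial lymphocytes, measured 0.505, 3.5 and 2.95 FPKM in the controls. The knockouts showed 0.271, 0.172, 0.873 and 1.3 FPKM, where 2 of the 4 lay above control mouse 2 (-1.62, limma's adjusted p = 0.381). Runx3, a transcription factor of the CD8 lineage, measured 0.233, 0.552 and 0.779 FPKM in the controls, against 0, 0.0597, 0.176 and 0.468 FPKM in the knockouts (-1.36, limma's adjusted p = 0.307), and Tbx21, which encodes T-bet, had at most 34 reads in any library.

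The cytoskeleton genes are shared by all leukocytes. Coro1a, an actin-binding protein needed for T cell survival, measured 44.1, 12.3 and 16.7 FPKM in the controls, against 8.0, 2.39, 3.33 and 7.89 FPKM in the knockouts (-2.11, limma's adjusted p = 0.0735). Rac2, a GTPase of blood cells, measured 3.07, 5.67 and 6.68 FPKM in the controls, against 0, 0.611, 1.37 and 2.09 FPKM in the knockouts (-2.85, limma's adjusted p = 0.14). Neither gene overlapped between the groups. Of the controls, mouse 2 was highest for Coro1a and lowest for Rac2.

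The second comparison asks whether LPA changed these levels in MYO5B-knockout mice, and shares the vehicle-treated knockout mice with the first. No gene of the 37 passed the threshold: limma and edgeR called 0 of the 35 tested and 0.0% of all genes, and DESeq2 called 0 of 25, with 0.00841% of all genes lower and 0.0505% higher. At an unadjusted p below 0.05, 1 of the 35 was higher, against 2.52% of all genes, and 0 were lower, against 0.401%. The summed level was 73.8, 76.2 and 48.0 FPKM in LPA-treated mice 1, 4 and 5 (66.0 ± 15.6 FPKM, SD, n = 3), within the range of the vehicle-treated mice. The median log2 difference was -0.13 over the 35 genes and 0.11 over all genes tested, and 18 genes were lower and 17 higher, where 39.3% of all genes were lower and 60.7% higher. The LPA-treated mice lay closer together than the vehicle-treated mice, with an SD of 15.6 against 84.1 FPKM for the sum, a difference that was not tested.

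For Gzma, Cd3g, Ccl5 and Cd7 the LPA-treated values lay inside the vehicle-treated range, except that Cd7 was below it in mouse 5. Gzma was present at 22.6, 27.8 and 18.4 FPKM in the LPA-treated group, and differed from the vehicle-treated mice by -0.49 on the log2 scale, with a 95% interval from -1.98 to 1.001. Cd7 was present at 3.83, 2.06 and 1.07 FPKM, a difference of -0.87 with an interval from -2.21 to 0.47. For Cd3g, at 1.36, 3.11 and 1.1 FPKM, the difference was -0.47 with an interval from -1.93 to 0.98. Ccl5, at 14.0, 13.3 and 7.3 FPKM, differed by -0.21, with an interval from -1.88 to 1.46. All 4 intervals include 0, and neither a partial return nor a further fall of these genes was detectable with 3 and 4 mice.

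Nkg7 and Xcl1 had the lowest and the highest fitted difference with all libraries. Nkg7 was present at 1.82, 2.7 and 0.0855 FPKM in the LPA-treated mice, and its difference of -1.31 had an interval from -3.34 to 0.73. Without LPA-treated mouse 5 the difference was -0.091. Xcl1 was present at 0.703, 1.22 and 0.717 FPKM in the LPA-treated mice against 0, 0, 0.187 and 0.763 FPKM in the vehicle-treated mice, from at most 11 reads in any of these libraries. It differed by 2.09, with an interval from 0.37 to 3.82 and an unadjusted p of 0.0218 (limma's adjusted p = 1.0). Cd69 was the only gene whose groups did not overlap with LPA higher, where 3.56% of all genes did so (0 genes with LPA lower, against 0.604%), but its ranges of 0.202 to 0.231 and 0 to 0.191 FPKM nearly touched. The other receptor genes of its group overlapped.

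The third comparison sets the LPA-treated MYO5B-knockout mice against control mice, and shares the control mice with the first. Here 33 of the 35 genes were lower, where 30.0% of all genes were. Higher were 2, where 69.5% of all genes were: Cd2 (0.16) and Ifng (0.21), both of which turned below 0 without the 2 libraries with few detected genes. Cd7, Gzma and Cd3g fell, 3 genes against 0.776% of all genes called lower, and 0 rose, where 1.54% did. Every LPA-treated mouse lay below every control mouse for 22 of the 35 genes, against 6.38% of all genes, and above for 0, against 20.5%. The median log2 difference was -1.76, and 0.41 over all genes tested. The summed level differed 9.21-fold by the means. At an unadjusted p below 0.05, 17 were lower, against 4.42% of all genes.

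Cd7 fell by 3.62 on the log2 scale (standard error 0.65, limma's adjusted p = 0.0195), Gzma by 3.67 (standard error 0.72, limma's adjusted p = 0.0312) and Cd3g by 3.18 (standard error 0.70, limma's adjusted p = 0.0472). Their means were 11.5-fold, 12.7-fold and 9.37-fold lower than in control mice. With 1 mouse left out, the adjusted p stayed below 0.05 in 6 of 10 fits for Cd7 and in 3 of 10 for Gzma and for Cd3g. None of the 3 was called without control mouse 4 or 5 or without LPA-treated mouse 4 or 5. Nkg7 differed by -4.18 (limma's adjusted p = 0.057), and by -2.97 without LPA-treated mouse 5, where it was lowest. Ccl5 differed by -3.50 (limma's adjusted p = 0.0536, edgeR's adjusted p = 0.0409). edgeR called 4 genes, with 1.25% of all genes lower, and DESeq2 called 17 of 34, with 5.69% lower. With both libraries of low detection left out, limma called 10 genes, with 4.25% of all genes lower and 4.31% higher, and Gzma was not among them (adjusted p = 0.0506).

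**Figure D4:**
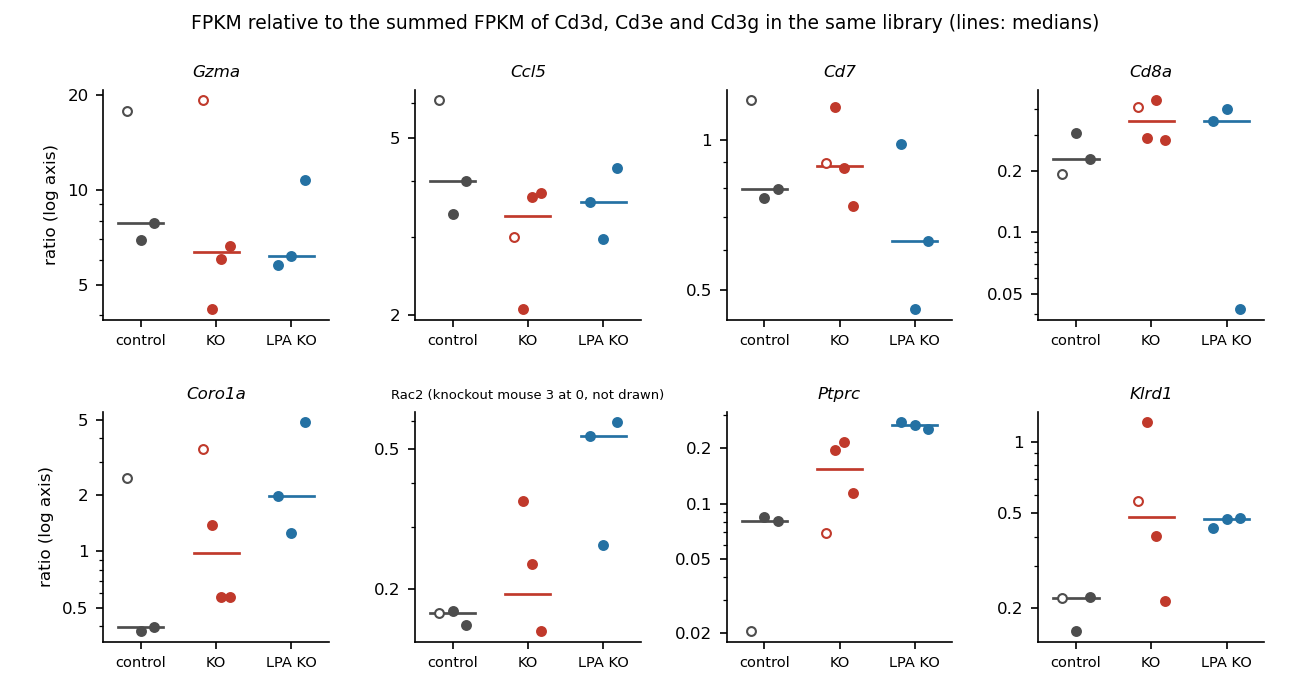
FPKM of 8 genes divided by the summed FPKM of Cd3d, Cd3e and Cd3g in the same library (log axis), by mouse, with the group median as a line and the libraries with few detected genes as open points. KO stands for MYO5B-knockout and LPA KO for LPA-treated MYO5B-knockout mice. The medians of Gzma, Ccl5 and Cd7 are similar in the 3 groups, and those of Coro1a, Rac2, Ptprc and Klrd1 are higher in both knockout groups.

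A ratio within a library does not depend on the scaling between libraries, and setting each gene against the summed Cd3d, Cd3e and Cd3g shows whether it fell more or less than the CD3 chains. The denominator in controls 2, 4 and 5 was 18, 32.6 and 42.3 FPKM. It was 2.28, 1.72, 5.8 and 13.7 FPKM in MYO5B-knockout mice 3, 5, 6 and 7. It was 3.9, 4.5 and 1.71 FPKM in LPA-treated mice 1, 4 and 5. Gzma was 7.83 times the CD3 sum in the median control mouse, 6.34 times in the knockout mice and 6.18 times in the LPA-treated mice. For Ccl5 the medians were 4.01, 3.34 and 3.59, and for Cd7 0.796, 0.887 and 0.627. In each case the ranges of the 3 groups overlapped.

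Against the same sum, several other genes had higher median ratios in both knockout groups, T cell genes as well as genes that other leukocytes express. The medians in control, MYO5B-knockout and LPA-treated mice were 0.229, 0.35 and 0.351 for Cd8a, 0.151, 0.329 and 0.286 for Itgae, 0.116, 0.155 and 0.23 for Itgb7, and 0.202, 0.332 and 0.59 for Lat. The median ratio of Coro1a was 0.394 in control, 0.981 in MYO5B-knockout and 1.97 in LPA-treated mice, although control mouse 2, at 2.46, lay above most of them. That of Ptprc was 0.0801, 0.154 and 0.265, with every LPA-treated mouse (0.254 to 0.276) above every control mouse (0.0204 to 0.0849). The medians of Klrd1 were 0.220, 0.485 and 0.475, and those of Rac2 0.171, 0.194 and 0.541. Lower in both knockout groups, as for Gzma and Ccl5, were the medians of Gzmb (0.866, 0.616 and 0.534) and Nkg7 (0.506, 0.491 and 0.465). Those of Cd8b1 were 0.0421, 0.0327 and 0.133. These ratios are descriptions without a test, and the knockout values rest on low counts, with at most 63 reads of Cd3d in any knockout library.

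The T cell receptor chain genes, which are not among the 37, were lower too. Of 10 looked for, 6 were listed and tested, and the knockout level was the lower for each of the 6, where 36.6% of all genes were lower. Trbc2, a constant segment of the beta chain, measured 15.8, 21.7 and 18.6 FPKM in the controls, 1.4, 1.78, 2.82 and 4.77 FPKM in the knockouts and 2.75, 4.1 and 2.16 FPKM with LPA. It fell by 2.89 on the log2 scale (limma's adjusted p = 0.0129), and also without the 2 libraries (limma's adjusted p = 0.0216). Trbc1, which is nearly identical to Trbc2 in sequence so that reads may be divided between them, fell by 2.41 (limma's adjusted p = 0.0353). Its call was lost with both libraries of low detection left out (limma's adjusted p = 0.057) and with edgeR (adjusted p = 0.0526). With 1 mouse left out, limma called Trbc2 in 7 of 10 fits, all but those without control mouse 4 or 5 or knockout mouse 5, and Trbc1 in 2, those without knockout mouse 3 or 7. Both were also lower in LPA-treated than in control mice, with adjusted p-values of 0.0197 and 0.0418 (limma). Tcrg-C1, a constant segment of the gamma chain, was at 4.72 to 15.3 FPKM in the control mice and 0.882 to 3.31 FPKM in the knockout mice (-2.34, limma's adjusted p = 0.282). Trac, Tcrg-C2 and Tcrg-C4 overlapped between these groups and had 0 reads in control mouse 2 and knockout mouse 3. Their differences were -1.175, -1.573 and -1.376 (limma's adjusted p = 0.78, 0.709 and 0.687).

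A wider list of T cell genes was less uniform. Of its 34 tested genes, 27 were lower and 7 higher in MYO5B-knockout mice, with a median of -1.11, where 36.6% of all genes were lower. Limma and edgeR each called 1 lower and DESeq2 7, against 0.884%, 1.68% and 7.02% of all genes. The gene called by limma was Ctsw, the cathepsin of cytotoxic lymphocytes, at 9.12 to 13 FPKM in the control mice and 0.89 to 4.21 FPKM in the knockout mice (-2.75, limma's adjusted p = 0.0381). The call was lost with both libraries of low detection left out (limma's adjusted p = 0.0665), and with 1 mouse left out it held in 1 of 10 fits, that without knockout mouse 7. In LPA-treated mice it was at 0.548 to 1.5 FPKM (-3.33 from control, limma's adjusted p = 0.0198). Cd38, an ectoenzyme of activated lymphocytes and other cells, lay at 7.93 to 14.6 FPKM in the control mice and 11.7 to 28.6 FPKM in the knockout mice.

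Epithelial and niche signals to intraepithelial lymphocytes were examined as a further list. Of 23 tested, 19 were lower in MYO5B-knockout mice, with a median of -1.11, where 36.6% of all genes were lower. Limma called 1 of them, edgeR 3 and DESeq2 6, against 0.884%, 1.68% and 7.02% of all genes. H2-T3, which encodes the thymus leukemia antigen that binds CD8 alpha homodimers, measured 133, 101 and 108 FPKM in the controls, against 9.68, 8.65, 29.3 and 37.2 FPKM in the knockouts. It fell by 2.70 (limma's adjusted p = 0.0335), a call lost with both libraries of low detection left out (limma's adjusted p = 0.073) and in 9 of the 10 fits that left out 1 mouse, all but that without knockout mouse 7. In LPA-treated mice, at 14.8, 15.4 and 7.56 FPKM, it fell by 3.23 from control (limma's adjusted p = 0.0183). Ccl25, the ligand of CCR9, measured 138, 572 and 586 FPKM in the controls, against 48.1 to 185 FPKM in the knockouts, and its adjusted p was 0.217 with all libraries and 0.0126 without the 2 libraries (limma). Cdh1, which encodes the E-cadherin that CD103 binds, lay at 118 to 134 FPKM in the control mice and 178 to 262 FPKM in the knockout mice (0.67, limma's adjusted p = 0.167).

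**Figure D5:**
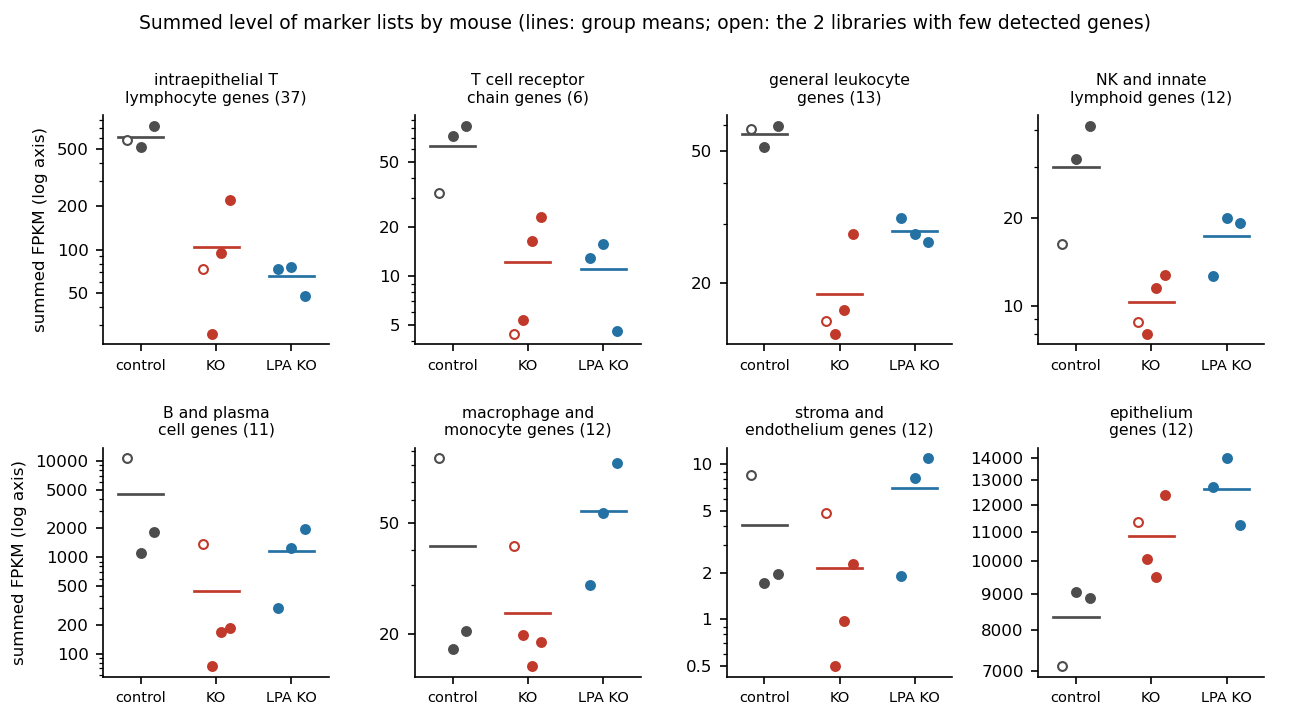
Summed FPKM of marker lists (log axis, number of genes in brackets) by mouse, with the group mean as a line and the libraries with few detected genes as open points. KO stands for MYO5B-knockout and LPA KO for LPA-treated MYO5B-knockout mice. The T lymphocyte and T cell receptor chain genes are low in both knockout groups, whereas the macrophage sum of the LPA-treated mice (30.0 to 81.5 FPKM) is above that of 3 of the 4 knockout mice.

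Markers of other cells moved with the groups in different ways. General leukocyte genes summed to 51.3 to 59.6 FPKM in the control mice, 14.0 to 28.1 FPKM in the knockout mice and 26.5 to 31.4 FPKM in the LPA-treated mice, and 12 of 13 had a difference below 0 in the first comparison. NK and innate lymphoid genes summed to 16.3 to 41.5 FPKM in control, 8.02 to 12.8 FPKM in knockout and 12.7 to 20 FPKM in LPA-treated mice, with Klra1 and Il23r at 0 in every library. B and plasma cell genes summed to 1102 to 10675.3 FPKM in the control mice, 73.6 to 1371.5 FPKM in the knockout mice and 295 to 1943.8 FPKM in the LPA-treated mice, almost all of it from the immunoglobulin genes Igha and Igkc. Macrophage and monocyte genes summed to 17.7 to 85.1 FPKM, 15.3 to 41.1 FPKM and 30.0 to 81.5 FPKM, and the stroma and endothelium genes to 1.72 to 8.59 FPKM, 0.498 to 4.89 FPKM and 1.91 to 11 FPKM. Epithelium genes summed to 7106.9 to 9041.3 FPKM in control, 9510.4 to 12399.6 FPKM in MYO5B-knockout and 11247.6 to 13980.4 FPKM in LPA-treated mice. The part that these other cells had in the values of the 37 genes was not tested.

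The share of genes that were higher in LPA-treated than in vehicle-treated knockout mice varied between the lists. All 9 tested B and plasma cell genes and all 10 tested macrophage and monocyte genes were higher in the LPA-treated mice, with medians of 2.08 and 1.04. Of all genes tested, 60.7% were higher. Limma, edgeR and DESeq2 each called 0 of the genes of these 2 lists, and limma and edgeR called 0.0% of all genes. Higher too were 12 of 13 general leukocyte genes, 4 of 5 NK and innate lymphoid genes and 5 of 6 mast cell genes. So were 8 of 9 stroma and endothelium genes and 9 of 12 epithelium genes. Of the 35 T lymphocyte genes, 17 were higher and the median was -0.13. Without knockout mouse 7 only 8 of the 35 were lower and the median was 0.29. The wider list of T cell genes had 21 of 34 higher, with a median of 0.21. Of the T cell receptor chain genes 3 were higher and 3 lower, with a median of -0.12. No test was made of the difference between the lists.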

How the data were processed

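Jejunal epithelial cells of 10 mice were sequenced as poly(A) RNA. The authors deposited FPKM for 35275 genes, computed from counts per gene. The submitters' notes name STAR 2.5, TopHat, HTSeq 0.6.1 and DESeq2, and the builds GRCm38 and mm10. No further scaling between libraries is stated. Coordinates are those of the deposited table. Multiplied by gene length, 100.0% of FPKM values were whole reads (tolerance 0.02), and 63 of 63 deposited read counts equalled the recovered number.

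The log2 of FPKM + 0.1 was fitted in limma 3.58.1 (R 4.3.3) with a trended variance, in 1 model of the 3 groups, for the 15729 genes averaging 0.1 FPKM or more. Tests were two-sided, with Benjamini-Hochberg adjustment over all genes and a threshold of 0.05. A difference on this scale understates the change of low genes. Recovered reads were tested with edgeR 4.0.16 (quasi-likelihood) and DESeq2 1.42.0. The labels do not tie the mice to litters or batches, so that p-values measure the spread between these mice. Intervals are 95% intervals of limma and read numbers cover counting error only.

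The 37 genes, their 10 role groups and the other lists were chosen with earlier results of these data known. Values by mouse are given for the 2 most abundant genes of each role group and for each gene with an adjusted p below 0.05 in any of the 3 comparisons. Alternatives were another pseudocount, filter, scaling or count model, only the groups compared, a block on mouse number and leaving out each mouse.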

Additional observations from a re-analysis of the deposited data

Results flagged for a closer look

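In the group of 4 MYO5B-knockout mice, 2 of 36 levels set mouse 3 apart from the other mice by Dixon's ratio, and about 1 in 20 would be set apart by chance. For Cd69 the gap between mouse 3 (0 FPKM) and the nearest of mice 5, 6 and 7 (0.179, 0.151 and 0.191 FPKM) was 0.86 of the range on the log2 scale. For Ccr9 the gap between mouse 3 (0 FPKM) and the others (0.356, 0.485 and 0.429 FPKM) was 0.859 of the range. Mouse 3 is one of the 2 libraries with few detected genes and had 0 reads for 20 of the 37 genes. The part of its low detection in these values was not tested.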

How the results depend on the processing

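The direction of the genes against control mice held under the alternatives, but the number past the threshold did not. Between MYO5B-knockout and control mice all genes tested were lower in every fit. The median of -2.02 ranged from -2.56 to -1.66 as single mice were left out, and other settings put it between -2.42 (DESeq2) and -1.07 (pseudocount of 1). In brackets beside each count is the count over all genes tested, in either direction. The count of 2 (316) was 11 (399) with a pseudocount of 1 and 9 (598) with median-ratio scaling. It was 12 (804) with quantile normalization and 14 (1830) with DESeq2. It was 0 with a pseudocount of 0.01 (263), with no filter (188) and with only the groups compared (50). Leaving out both libraries of low detection gave 1 (778). As single mice were left out the count ranged from 0 to 7. It was 7 (170) without MYO5B-knockout mouse 7, 1 (73) without mouse 5 and 0 (44 to 403) without any other. Leaving out an LPA-treated mouse ended both calls although it left the values of both groups as they were. All 3 groups set the spread in the model, and why the calls ended was not tested. Between LPA-treated knockout and control mice the count of 3 (365) was 8 (428) with a pseudocount of 1 and 7 (490) with median-ratio scaling. It was 11 (626) with quantile normalization, 10 (1346) without the 2 libraries and 17 (1489) with DESeq2. It lay between 0 (without control mouse 4 or 5, or LPA-treated mouse 4 or 5) and 6 (without MYO5B-knockout mouse 3) as single mice were left out, and was 1 without control mouse 2, MYO5B-knockout mouse 6 or LPA-treated mouse 1. The median of -1.76 ranged from -2.25 to -1.66 as single mice were left out.

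The mouse numbers 4 and 5 are shared by control and LPA-treated mice. Same-numbered mice of these groups deviated from their group means with correlations of 0.104 and -0.355. These 2 values, from groups of 3 mice, cannot decide whether the numbers mark pairs. With the replicate block the median was -2.34, and for Cd4 and Cd2 the block turned the difference to 0.021 and -0.80. The block called 0 of the 35 genes and 0 of all genes tested. Most mouse numbers occur in a single library, so the block leaves little from which to estimate the spread. Its count therefore cannot tell whether the calls depend on pairing. No paired analysis was possible for MYO5B-knockout against control mice because they share only 1 number.

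Between LPA-treated and vehicle-treated knockout mice the count was 0 in every fit, and the median of -0.13 was 0.27 with a pseudocount of 0.01 and lay between -0.38 (without MYO5B-knockout mouse 3) and 0.29 (without mouse 7) as single mice were left out, and its direction thus changed with the setting. The difference of Cd3d in this comparison (0.67) was -0.099 without the 2 libraries, -0.15 with edgeR and -0.13 with DESeq2. As single mice were left out it lay between -0.099 and 1.39, that of Cd3g between -0.90 and 0.036, that of Gzma between -1.20 and 0.019 and that of Ccl5 between -0.82 and 0.46. Against control mice, the difference of Cd2 in LPA-treated mice was -0.34 with quantile normalization, -0.66 without the 2 libraries, -0.20 with edgeR and -0.23 with DESeq2, and ranged from -0.66 to 0.69 as single mice were left out. That of Ifng was -0.31 with quantile normalization and -0.35 without the 2 libraries, and lay between -0.35 and 0.86. That of Cd69 was 0.30 with a pseudocount of 0.01 and lay between -1.47 and 0.18. The causes of these changes were not tested.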

Other observations

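Outside the T lymphocyte lists, 3 of 9 tested B and plasma cell genes fell in MYO5B-knockout mice by limma, where 0.884% of all genes did. edgeR called 2, against 1.68% of all genes called lower, and limma called 2 with both libraries of low detection left out, against 2.38%. Igkc, the constant segment of the kappa light chain, measured 2427, 695 and 1099 FPKM in the controls, against 346, 49.7, 109 and 117 FPKM in the knockouts (-3.34, limma's adjusted p = 0.0448). Mzb1, a chaperone of immunoglobulin assembly, lay at 1.01 to 9 FPKM against 0 to 0.294 FPKM (-3.88, limma's adjusted p = 0.0432), and Cd79a, a signalling chain of the B cell receptor, at 0.58 to 4.23 FPKM against 0.0304 to 0.168 FPKM (-3.16, limma's adjusted p = 0.0379). With 1 mouse left out, Mzb1 was called in 0 of 10 fits, Igkc in 2 (without knockout mouse 3 or LPA-treated mouse 1) and Cd79a in 2 (without control mouse 4 or knockout mouse 3). In LPA-treated mice 1, 4 and 5 the level of Cd79a was 1.51, 0.952 and 0.876 FPKM, above every vehicle-treated knockout mouse. Cd52, a surface glycoprotein of leukocytes, fell by 1.63 in MYO5B-knockout mice (limma's adjusted p = 0.0352). edgeR gave it an adjusted p of 0.0848, and limma called it in 1 of 10 fits with 1 mouse left out, that without knockout mouse 3.

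Tuft cell genes were lower in MYO5B-knockout mice for 8 of 9 tested, with a median of -1.39, where 36.6% of all genes were lower. Limma called 0 of them with all libraries and 3 with both libraries of low detection left out, against 0.884% and 2.38% of all genes called lower. edgeR called 1 and DESeq2 4, against 1.68% and 7.02%. Mast cell genes were higher for 5 of 6, with a median of 0.58, where 63.4% of all genes were higher. Their sum reached 91.1 FPKM in LPA-treated mouse 1 against 6.07 and 7.32 FPKM in LPA-treated mice 4 and 5. Ly6g, a neutrophil marker, had 0 reads in the control mice, and was listed at 8.35, 4.68, 0.156 and 3.06 FPKM in the knockout mice (limma's adjusted p = 0.111). S100a9, another neutrophil gene, was at 0 in the control mice and in 3 of the 4 knockout mice.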
